A study of Mus musculus with 4 samples.

Results

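Neurexins, neuroligins and leucine-rich repeat transmembrane proteins (LRRTMs) are cell-surface proteins that join the 2 sides of a synapse. The genes described here are Nrxn2, Nrxn3, Nlgn1, Nlgn2, Nlgn3, Lrrtm1, Lrrtm2, Lrrtm3 and Lrrtm4, which are 9 of the 55422 gene IDs of the deposited matrices. They were listed by name and found by Ensembl ID, and their counts were summed per library and class of nuclei over barcodes with at least 5000 unique molecular identifiers (UMIs, the tags that mark single RNA molecules).

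The counts came from single-nucleus RNA sequencing of the hippocampus of adult mice with the 10x Genomics Chromium kit. Control mice, with 2 libraries, were Kat6a-f/f, that is, floxed at both copies of Kat6a. Kat6a-cKO mice, also with 2 libraries, carried the same floxed Kat6a and NEX-cre in addition. NEX-cre places Cre recombinase under Neurod6, a gene of forebrain excitatory neurons, so the deletion is directed to those neurons and not to inhibitory neurons or glia. Kat6a encodes a histone acetyltransferase. The labels give neither the sex of the animals nor a batch, nor do they say whether a library is 1 animal, so p-values measure the spread between these libraries, which may be technical.

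Neurexins sit mostly on the presynaptic membrane, and their many isoforms come from separate start sites and alternative splicing. Neuroligins and LRRTMs sit on the postsynaptic membrane and bind neurexins across the cleft, in competition with one another and with secreted linkers such as cerebellins. Neuroligin 1 is known from excitatory synapses, neuroligin 2 from inhibitory synapses and neuroligin 3 from both, while LRRTMs are known from excitatory synapses, where LRRTM4 also binds heparan sulfate proteoglycans and is known from dentate granule cells.

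Start regions are shown for Lrrtm4 and Nrxn3 because, of the 6 genes with usable counts, these had the widest range of levels between classes. Each is the stretch of 250 bases before a RefSeq start (GRCm38.p6, plus strand), 5′ to 3′, with matches to the E-box CANNTG in capitals. That motif is its own reverse complement in this form, so a match on one strand is a match on both, and it is the type of site that Neurod and related factors are known to bind. Neither stretch overlaps an exon of GENCODE M21. The Lrrtm4 stretch lies at chr6:80018627-80018876, directly before the gene, and the Nrxn3 stretch lies at chr12:89812233-89812482, before a start inside the gene.
Lrrtm4: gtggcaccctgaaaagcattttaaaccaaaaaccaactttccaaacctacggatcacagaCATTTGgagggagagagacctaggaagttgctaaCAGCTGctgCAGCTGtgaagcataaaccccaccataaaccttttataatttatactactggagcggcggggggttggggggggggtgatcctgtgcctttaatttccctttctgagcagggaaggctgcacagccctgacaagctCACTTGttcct
Nrxn3: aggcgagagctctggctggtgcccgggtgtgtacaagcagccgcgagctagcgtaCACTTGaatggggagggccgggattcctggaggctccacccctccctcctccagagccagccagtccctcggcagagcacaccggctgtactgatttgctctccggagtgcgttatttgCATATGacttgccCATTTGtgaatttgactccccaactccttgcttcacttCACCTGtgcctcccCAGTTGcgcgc
Each is the start region with the most matches among those RefSeq lists for its gene. The Lrrtm4 stretch held 4 matches, against 2 before the other Lrrtm4 start, and the Nrxn3 stretch 5, against 0 and 1 before the other Nrxn3 starts. Of 32851 RefSeq start regions of this length, 66.2% held at least 1 match, 3.84% at least 4 and 1.15% at least 5. These shares are over single start regions, not over the richest start of each gene, so they make the 2 stretches look rarer than they are. The matches describe the letters and were not read as sites.

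Nuclei fell into 40 clusters, computed without the 9 genes and without the partner genes listed further on, and classes were named from marker genes. After Scrublet doublets had been left out, 7990 and 7718 nuclei remained in Control and 8144 and 7613 in Kat6a-cKO, with a median of 13706 to 14381 UMIs. Any 2 libraries shared 14 to 18 cell barcodes. Reads of the entry for Cre checked the labels, with 0 counts in both Control libraries and 158 and 150 in Kat6a-cKO over all nuclei. Kat6a itself was not called in any class, at 80.0 and 78.9 CPM (a gene's count relative to the library's total, scaled to a common size) over all Control nuclei against 74.4 and 74.5 in the Kat6a-cKO libraries (log2 fold change -0.09 ± 0.06 SE, edgeR adjusted p = 0.64). A count of the whole gene also takes reads outside the floxed part and so does not measure the deletion. Barcodes with 10 to 100 UMIs, which hold mostly free RNA, contained Nrxn3 at 2419 ± 102 CPM, Nlgn1 at 2265 ± 80.9 and Lrrtm4 at 1910 ± 90.5 (SD, n = 4 libraries). They contained Nrxn2 at 113 ± 18.4 CPM, Nlgn3 at 48.8 ± 8.30 and Nlgn2 at 35.25 ± 3.96. Low levels of these genes in a class can thus include free RNA.

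Of the 9 genes, 6 passed the filter on low counts in each of the 10 classes, and Lrrtm1, Lrrtm2 and Lrrtm3 passed in none of them. Nuclear RNA holds much unspliced RNA and long genes gather more reads from it, so levels are compared between classes for 1 gene and not between genes. CPM values of the members and partner genes in a class were scaled by TMM, a correction for library composition, and each class level is the mean over 4 libraries with its SD. CPM values of single clusters, of marker genes and of low-count barcodes were not scaled in this way, and neither were levels given as a percent of the granule level, so they are not matched to the class values. The order of the classes is a description and was not tested.

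**Figure D1:**
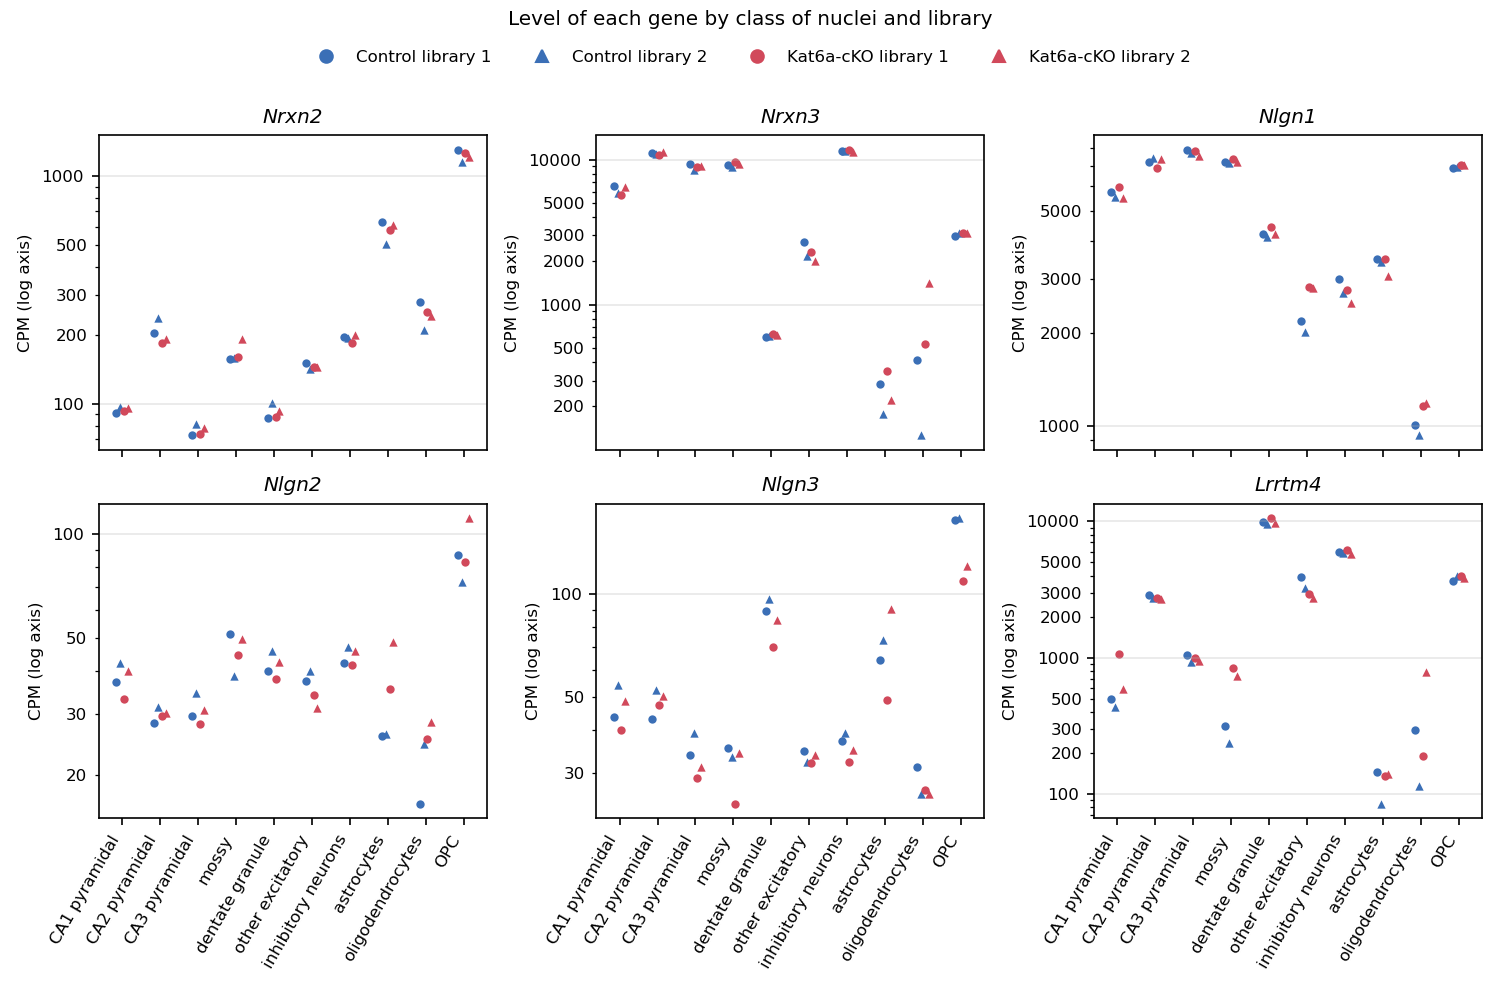
CPM (log axis, 1 scale per panel) of the 6 genes with usable counts in 10 classes of nuclei. Points are libraries, blue for Control and red for Kat6a-cKO. Lrrtm4 was highest in dentate granule nuclei and Nrxn3 in inhibitory and CA2 nuclei, and the red points stand above the blue ones for Lrrtm4 in mossy nuclei and for Nlgn1 in other excitatory nuclei.

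Nrxn3, a presynaptic neurexin gene of 1612 kb on chromosome 12, was high in most of the neuronal classes and low in granule nuclei, the class with the most nuclei. Inhibitory neurons held 11483 ± 187 CPM (SD, n = 4) and CA2 pyramidal nuclei 11024 ± 184, and the libraries of these leading classes overlapped. The lead depended on the classes. With each nucleus assigned to the class of its highest marker score, CA3 led at 8847 CPM, with inhibitory neurons at 8262 and CA2 at 7802. In the clustered classes the order went on as follows. Mossy nuclei followed at 9251 ± 302 CPM and CA3 pyramidal nuclei at 8909 ± 310, again with overlap, and CA1 pyramidal nuclei held 6170 ± 411. Dentate granule nuclei held 615 ± 12.6 CPM, the least of the neuronal classes. Precursors of oligodendrocytes (OPC) held 3076 ± 61.5 CPM and astrocytes 258 ± 76.6.

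Nrxn3 also varied between clusters of 1 class. Inhibitory cluster 11, with Vip and Cnr1 among its leading genes, held 17930 ± 256 CPM, whereas inhibitory clusters 17 and 32 held 2153 ± 129 and 3713 ± 343. In cluster 17, 4 of 6 Lamp5-type and 4 of 6 Pvalb-type markers were raised. In cluster 32, 6 of 6 Lamp5-type and 3 of 6 Pvalb-type markers were. In CA1, clusters 2 and 8 held 7781 ± 220 and 8024 ± 227 CPM, and cluster 3, with Dcn among its leading genes, held 3515 ± 216. The unnamed cluster 7, in which 62.5% of granule markers were raised, held 3850 ± 192 CPM, against 324 to 1841 CPM in the 5 granule clusters. No test was run between clusters, since they were defined on the same nuclei, although without these genes.

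Nrxn2, a second neurexin gene (125 kb, chromosome 19), was highest in glial nuclei. OPC held 1231 ± 66.6 CPM, astrocytes 579 ± 54.2 and oligodendrocytes 248 ± 28.3, and the first 2 of these did not overlap with the class below them. Among neurons the levels ran from 205 ± 23.2 CPM in CA2 down to 76.7 ± 3.97 in CA3, which stood below all other classes in every library. CA1 at 94.4 ± 2.94 and granule nuclei at 92.2 ± 6.55 overlapped. The levels in CA1, granule and CA3 nuclei are under the 113 CPM of Nrxn2 measured in low-count barcodes.

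Nlgn1, the neuroligin of excitatory synapses (906 kb, chromosome 3), was highest in CA3 nuclei at 7750 ± 150 CPM. Mossy nuclei at 7232 ± 107, CA2 nuclei at 7216 ± 247 and OPC at 6971 ± 69.7 came next, and each overlapped with its neighbour among them. CA1 held 5691 ± 222 CPM and granule nuclei 4232 ± 133. Inhibitory neurons at 2744 ± 203 and other excitatory nuclei at 2467 ± 418 overlapped, and oligodendrocytes were lowest at 1070 ± 122. OPC thus held more Nlgn1 than CA1 and less than CA3 in every library, while oligodendrocytes, which arise from OPC, held the least of all classes.

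Nlgn2, the neuroligin of inhibitory synapses (14.7 kb, chromosome 11), and Nlgn3 (26.8 kb, chromosome X) gave few counts per nucleus. Both were highest in OPC, at 88.3 ± 16.4 CPM for Nlgn2 and 140 ± 29.5 CPM for Nlgn3, with no overlap with the next class. Nlgn2 then ran from 46.0 ± 5.74 CPM in mossy nuclei to 23.7 ± 5.08 in oligodendrocytes, with overlap between every pair of neighbours. Low-count barcodes held 35.25 ± 3.96 CPM of Nlgn2, within that range. Nlgn3 in granule nuclei, at 84.9 ± 11.3 CPM, overlapped with astrocytes at 69.3 ± 17.3, and CA1 at 46.7 ± 6.13 stood above inhibitory neurons, at 32.4 to 39.2 CPM, in all libraries. The means of CA1 and of inhibitory neurons are under the 48.8 ± 8.30 CPM of Nlgn3 measured in low-count barcodes.

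Lrrtm4, a postsynaptic partner of neurexins (791 kb, chromosome 6), was highest in dentate granule nuclei at 9966 ± 431 CPM. Inhibitory neurons followed at 5924 ± 173 CPM and OPC at 3866 ± 145, each clear of its neighbours in every library except that OPC overlapped with other excitatory nuclei at 3196 ± 527. CA2 held 2769 ± 69.7 CPM and CA3 980 ± 49.5, while CA1 at 645 ± 288 and mossy nuclei at 534 ± 304 had the widest spreads between libraries among neurons, relative to their means. CA3 and the classes below it are under the 1910 CPM measured in low-count barcodes. The low levels depend on how nuclei were assigned, since with classes by marker score Lrrtm4 was 3174 CPM in astrocytes and 1235 CPM in CA1, Nrxn3 was 2074 CPM in astrocytes, and Nlgn1 was 3273 CPM in oligodendrocytes.

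Lrrtm4 also separated clusters of 1 class. In CA1 it was 51.8 ± 18.7 CPM in cluster 2, 406 ± 160 in cluster 8, 1217 ± 384 in cluster 3 and 1267 ± 536 in cluster 16, with the reverse of the order of Nrxn3 between clusters 8 and 3. Among inhibitory neurons cluster 17 held 9384 ± 250 CPM and cluster 11 held 5750 ± 147, again the reverse of Nrxn3, but cluster 32 was low in both genes, with 2823 ± 370 CPM of Lrrtm4. Granule clusters 0, 1, 4 and 6 held 9425 to 10370 CPM, the small granule cluster 36 held 4728 ± 125, and the unnamed cluster 7 with granule markers held 8918 ± 481.

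**Figure D2:**
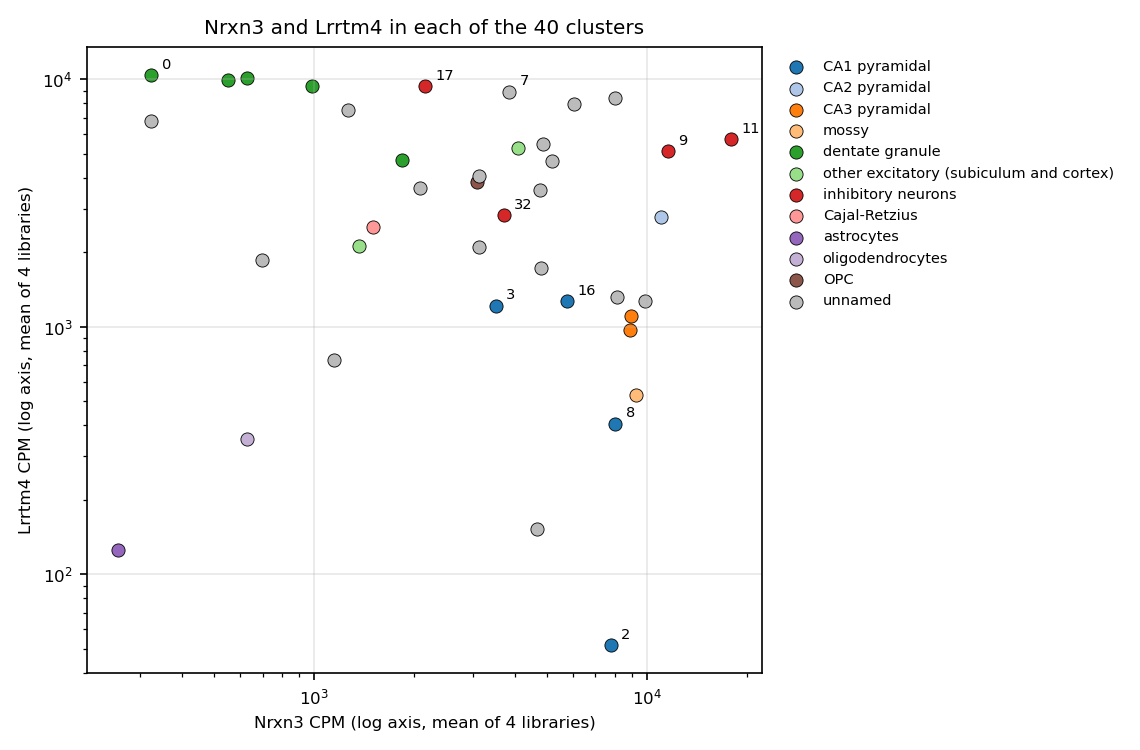
Nrxn3 against Lrrtm4 in CPM (mean of 4 libraries, both axes logarithmic) for each of the 40 clusters, coloured by class, with some clusters numbered. Granule clusters sit at high Lrrtm4 and low Nrxn3, CA1, CA3 and mossy clusters at high Nrxn3 and low Lrrtm4, and inhibitory clusters 9 and 11 are high in both.

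Genes with the most similar pattern over 11 classes in 4 libraries were sought among 8952 genes that reached 20 CPM in a class, by the Pearson correlation of log2(CPM + 1) over 44 values. These values share libraries and differ mainly by class, so the correlations describe the pattern and carry no test. For Lrrtm4 they were Shisa9 (r = 0.88) and Mamld1 (0.87), and for Nrxn3 Cadps (0.91) and Brinp2 (0.89). For Nlgn1 they were Dock4 (0.85) and Gria2 (0.84), the latter an AMPA receptor subunit. Nrxn2 was closest to Cyp2j6 (0.92) and Hip1 (0.91), Nlgn2 to Plxna3 and Car8 (both 0.76), and Nlgn3 to Disc1 (0.87) and Fam222b (0.82). Among the genes themselves the highest value was 0.66, between Nlgn2 and Nlgn3.

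Lrrtm1, Lrrtm2 and Lrrtm3 were close to 0 in every class. Over all nuclei the 4 libraries held 6, 7, 7 and 5 counts of Lrrtm1, 16, 17, 17 and 13 of Lrrtm2, and 33, 14, 37 and 23 of Lrrtm3, in the order Control 1, Control 2, Kat6a-cKO 1 and Kat6a-cKO 2. The 3 genes share a position. In GENCODE M21 each lies wholly inside an alpha-catenin gene on the opposite strand, Lrrtm1 inside Ctnna2 on chromosome 6, Lrrtm2 inside Ctnna1 on chromosome 18 and Lrrtm3 inside Ctnna3 on chromosome 10. Ctnna2 itself held 1360 to 1518 CPM over all nuclei and Ctnna3 321 to 404.

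Such a position went with low counts in the whole matrix. Of 510 protein-coding genes that lie wholly inside a protein-coding gene of the other strand, 96.1% were under 1 CPM over all nuclei, and of 373 inside one of the same strand 94.9% were. Of 11478 protein-coding genes that no other gene overlaps, 52.9% were under 1 CPM, and of 9037 with any other overlap 26.2% were. Lrrtm4, which no protein-coding gene overlaps, gave up to 10565 CPM in a class. The near-zero counts of Lrrtm1, Lrrtm2 and Lrrtm3 are therefore not read as low expression, and how overlapping genes were counted is not given in the sources used here.

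Kat6a-cKO was compared with Control within each class to see where the genotype went with a change in these genes. Lrrtm4 rose in mossy nuclei and Nlgn1 in other excitatory nuclei, and no other of the 9 genes passed the threshold in any class, by edgeR's quasi-likelihood test with Benjamini-Hochberg adjustment over all genes at 0.05. One of 6 tested members was thus called in mossy nuclei, where 0.880% of all tested genes were, and 1 of 6 in other excitatory nuclei, where 0.682% were. None of 6 was called in CA1 (0.0297% of all tested genes), CA3 (0.0611%), CA2 (0.0375%), dentate granule (0.396%), inhibitory neurons (0.0273%), astrocytes (0.0312%), oligodendrocytes (0.0129%) or OPC (0.138%), and none of 8 in all nuclei summed (0.0641%). DESeq2 called the same genes in the same classes and no other member. A fit without 1 library leaves 1 library of that genotype and no measure of the spread within it. Calls in such fits were not read as support. In the classes without a call, an unadjusted edgeR p under 0.05 was reached by 1 member in CA1 (8.45% of all tested genes), CA3 (8.09%), CA2 (6.51%), granule nuclei (9.68%), OPC (7.82%) and all nuclei (10.2%), by 2 in oligodendrocytes (5.52%), and by 0 in inhibitory neurons (6.56%) and astrocytes (5.96%).

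**Figure D3:**
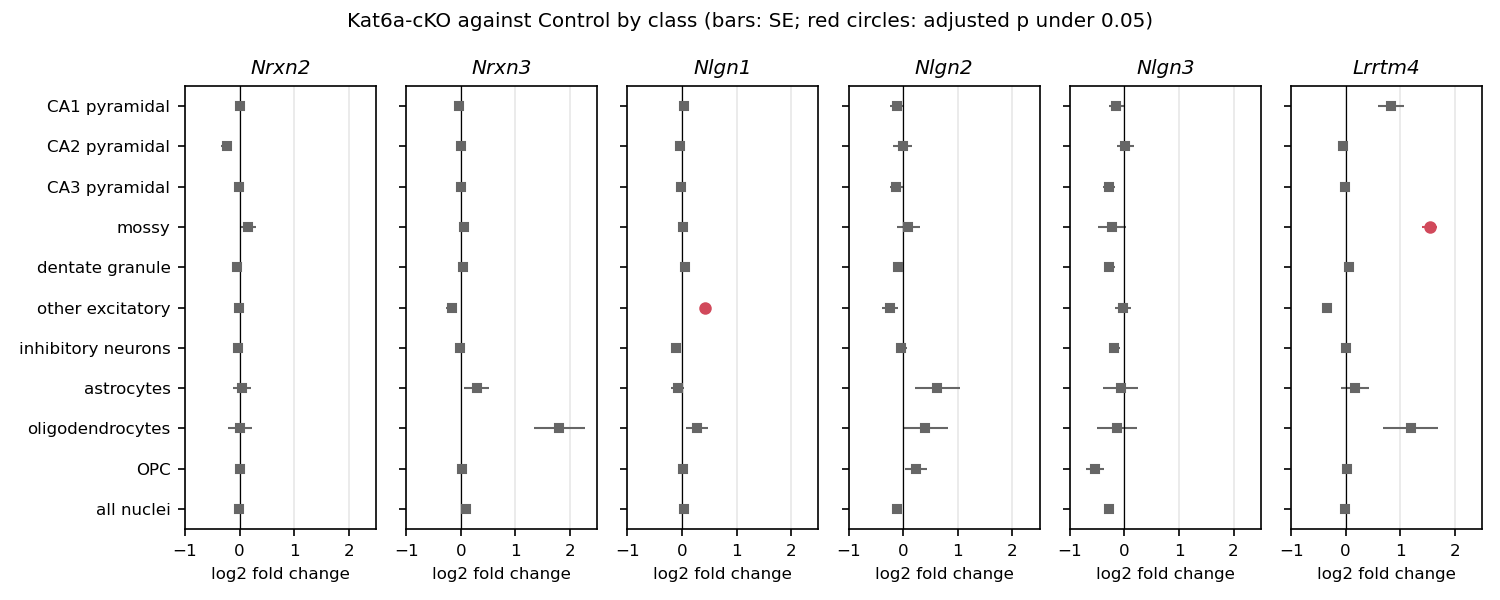
Log2 fold change of Kat6a-cKO over Control (horizontal axis, bars are SE) for 6 genes in each class and in all nuclei. Red circles mark the 2 values with an adjusted p under 0.05, Lrrtm4 in mossy nuclei and Nlgn1 in other excitatory nuclei, and most other values lie near 0 with wider bars in astrocytes and oligodendrocytes.

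The mossy class was 1 cluster, in which 6 of 8 mossy markers were raised and also 6 of 9 CA3 markers. In these nuclei, from the glutamatergic neurons of the dentate hilus, Lrrtm4 stood at 313 and 238 CPM in the Control libraries and at 847 and 739.5 CPM in those of Kat6a-cKO. Both Kat6a-cKO libraries stood above both Control libraries, as they did for 19.5% of all genes tested in mossy nuclei. For Lrrtm4 the factor between genotypes was larger than the gap between libraries of 1 genotype. The log2 fold change was 1.54 ± 0.13 (SE), 2.91-fold, with an edgeR adjusted p of 4.7e-06. The class held 30 and 51 Control nuclei and 51 and 52 Kat6a-cKO nuclei, or 954519 to 1513844 counts per library. Leaving out each library in turn gave 1.34 to 1.73.

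The rise in mossy nuclei was spread over many nuclei. With each nucleus thinned to 5000 UMIs, the median was 0 and 1 Lrrtm4 UMI in the Control libraries and 3 and 2.5 in Kat6a-cKO. Of the mossy nuclei, 46.7% and 52.9% of the Control ones but 88.2% and 84.6% of the Kat6a-cKO ones held a UMI of Lrrtm4 after thinning. Before thinning the shares were 70.0% and 84.3% against 96.1% and 96.2%, at median depths of 29840 and 29570 against 25760 and 24250 UMIs. In CA1 cluster 2, the cluster with the least Lrrtm4, the thinned share was 11.98% to 20.04% at median depths of 16180 to 18010 UMIs. Without the nucleus of highest Lrrtm4 share in each library the log2 fold change was 1.70 ± 0.13 (edgeR adjusted p = 1.9e-08). Those nuclei were chosen by the values under test, so neither number is further support. The nucleus with the most Lrrtm4 UMIs held 32.4% and 12.7% of those of the class in the Control libraries. In the Kat6a-cKO libraries it held 7.96% and 16.2%.

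Granule cells surround mossy cells and hold much Lrrtm4, so granule markers were set beside it. The summed level of 8 granule markers in mossy nuclei was 272 and 334 CPM for Control and stood at 391 and 419 CPM for Kat6a-cKO, with none of the 8 at 0. That was 3.51% and 4.28% of the level in granule nuclei of the same library against 5.07% and 5.36%, whereas Lrrtm4 went from 3.17% and 2.499% of its granule level to 7.93% and 7.535%. Prox1, which defines granule cells, stood at 0.824% and 2.44% of its granule level in the Control libraries, against 1.87% and 0.617% in those of Kat6a-cKO. Summed markers of inhibitory neurons were 40.9 and 40.3 CPM against 92.3 and 52.9, with 1 of 8 at 0, and those of CA3 were 7982 and 8127 CPM against 7339 and 7564, with none of 9 at 0. OPC markers were 711.4 and 709.5 CPM against 742.4 and 790.9, with 1 of 8 at 0. CA1 markers were 427.4 and 474.3 CPM against 406.5 and 336.4, with none of 8 at 0. Of the 8 mossy markers, Calb2, Glipr1, Csf2rb2 and Ajap1 were lower in both Kat6a-cKO libraries, Ociad2 and Sv2b were higher in both, and Drd2 and Nmb overlapped. Of all genes tested in mossy nuclei, 18.8% lay lower in both Kat6a-cKO libraries and 19.5% higher. The values put Csf2rb2 at 181 and 225 CPM for Control against 154 and 142.5 for Kat6a-cKO, Glipr1 at 22 and 27.1 against 4.33 and 9.96, and Calb2 at 32.5 and 26.4 against 25.2 and 9.96. The part of these markers, those of granule cells included, in the Lrrtm4 result was not tested.

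The Lrrtm4 change depended on how mossy nuclei were chosen. When each nucleus was instead assigned to the class of its highest marker score, the mossy class grew to between 216 and 314 nuclei per library with a mean Lrrtm4 level of 2717 CPM, and the log2 fold change was 0.26 (edgeR adjusted p = 0.90).

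CA1 pyramidal nuclei showed a difference of the same sign in Lrrtm4 that did not pass the test. The Control libraries held 496 and 433 CPM and those of Kat6a-cKO 1066 and 585, so the groups did not overlap, but library 1 of Kat6a-cKO stood far above library 2. The log2 fold change was 0.83 ± 0.23 (edgeR adjusted p = 0.36). It was 1.20 without library 2 of Kat6a-cKO and 0.33 without library 1, each from a fit with 1 Kat6a-cKO library. The makeup of the class moved as well, since cluster 3, richer in Lrrtm4 than clusters 2 and 8, gave 511 and 602 of the 1570 and 1852 CA1 nuclei of Control but 701 and 515 of the 1577 and 1850 of Kat6a-cKO. Summed granule markers in CA1 were 378 and 375 CPM for Control and 342 and 323 CPM for Kat6a-cKO, and those of OPC were 552 and 648 CPM against 844 and 764, with none of 8 at 0. Those of oligodendrocytes and microglia were also lower in both Kat6a-cKO libraries. The part of these markers in the Lrrtm4 values was not tested. Of all genes tested in CA1, 20.4% lay lower in both Kat6a-cKO libraries and 18.2% higher.

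Looked at cluster by cluster, a choice made after these values were seen, the values in CA1 were as follows, and whether the clusters differed from one another in the effect was not tested. In cluster 8, Lrrtm4 went from 239 and 304 CPM to 514 and 568 CPM with the deletion genotype (log2 fold change 1.02, edgeR adjusted p = 0.00026). Of all 12660 genes tested in cluster 8, 87 were called. Lrrtm4 in the remaining clusters was as follows. In cluster 3 it was 1034 and 863 CPM against 1748 and 1221 (0.66, adjusted p = 0.13). In cluster 2, where it was 30.2 to 67.8 CPM, the groups overlapped, and they overlapped in cluster 16 too.

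Other excitatory nuclei were named from markers of the subiculum and cortex, which adjoin the hippocampus. Nlgn1 in them stood at 2196 and 2025 CPM in the Control libraries and at 2836 and 2813 CPM in those of Kat6a-cKO, without overlap. Of all genes tested in this class, 18.4% lay higher in both Kat6a-cKO libraries. The log2 fold change of Nlgn1 was 0.42 ± 0.08 (1.34-fold, edgeR adjusted p = 0.036). In the 2 clusters of the class, Nlgn1 stood at 2344 and 2092 against 2959 and 2993 CPM in cluster 10 (0.44, adjusted p = 0.0048) and at 1932 and 2027 against 2470 and 2392 CPM in cluster 18 (0.34, adjusted p = 0.34). The call was lost without either Kat6a-cKO library, with about the same fold change, and also with doublets kept and at a finer clustering. With classes by marker score the log2 fold change was 0.12, without a call. The class also took a larger share of nuclei in Kat6a-cKO, 4.88% and 4.97% against 3.02% and 2.71%, and whether the dissection differed was not tested. Summed OPC markers in the class were 408 and 447.5 CPM for Control against 499.5 and 485 for Kat6a-cKO, with none of 8 at 0, and CA3 markers 1685 and 1703 CPM against 1344 and 1575, with none of 9 at 0. Granule markers were 485.9 and 454.2 CPM against 493 and 500.9, with none of 8 at 0. CA1 markers were also higher, and those of oligodendrocytes and microglia lower, in both Kat6a-cKO libraries. The part of all these markers in the Nlgn1 result was not tested.

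Lrrtm4 in other excitatory nuclei went the other way without passing the test, with 3924 and 3221 CPM for Control against 2917 and 2724 for Kat6a-cKO (log2 fold change -0.34 ± 0.10, edgeR adjusted p = 0.17). Without library 2 of Control it was -0.48, and without library 1 of Control it was -0.19. In cluster 10 alone it was called (-0.37, adjusted p = 0.030), beside 130 of all 11154 tested genes, and in cluster 18 it was not (-0.27, adjusted p = 0.49). In dentate granule nuclei, the class with the most Lrrtm4, the levels were 9968 and 9571 CPM against 10565 and 9762 CPM and overlapped (0.06 ± 0.06).

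The difference between classes was tested for 3 pairs with a class-by-genotype term in edgeR, the library being a block. None of the members was called for CA3 against CA1 (0.160% of all tested genes), CA3 against dentate granule (0.189%) or CA1 against dentate granule (0.0955%), and at an unadjusted p under 0.05 there were 1 (6.09% of all tested genes), 0 (5.91%) and 1 (7.21%) of 6. Lrrtm4 had the differences -0.76 ± 0.16 between CA3 and CA1 (adjusted p = 0.14) and 0.75 ± 0.18 between CA1 and granule nuclei (adjusted p = 0.24). Both kept their direction on leaving out either Kat6a-cKO library, but their size depended on which library stayed. Without library 1 they were -0.37 and 0.32, and without library 2 they were -1.16 and 1.13. Such fits hold 1 Kat6a-cKO library and no spread within that genotype. In 4 further pairs chosen after the mossy values were known, Lrrtm4 changed more in mossy nuclei than in CA3 (1.56 ± 0.10, adjusted p = 1.0e-11), granule (1.48 ± 0.10, adjusted p = 5.0e-18), other excitatory (1.88 ± 0.12, adjusted p = 7.9e-08) and CA1 nuclei (0.78 ± 0.12, adjusted p = 8.5e-08). In those pairs 0.515%, 0.622%, 0.579% and 0.847% of all tested genes were called, and Lrrtm4 was the only member called of the 6 tested in each. The SE in each pair was smaller than that of the mossy change alone, so these p-values can understate the spread between libraries. For CA1 the SE was also smaller than that of the CA1 change alone and than those of the planned pairs with CA1 (0.16 and 0.18). Mossy nuclei held less Lrrtm4 than CA1 in both Control libraries and in library 1 of Kat6a-cKO, but more in library 2. The size of that difference thus depends on the Kat6a-cKO library.

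Nlgn3 had a log2 fold change below 0 in 9 of 10 classes, without a call in any. With the replicate number as a block it was called in granule nuclei (-0.28, edgeR adjusted p = 0.031) and over all nuclei (-0.29, adjusted p = 0.022). Calls over all genes also rose with the block, from 66 to 465 of 16670 in granule nuclei and from 14 to 764 of 21837 over all nuclei. Without a filter on low counts Nlgn3 was called in granule nuclei (adjusted p = 0.027), beside 635 of 28332 genes. The replicate numbers could not be shown to pair the libraries. Without the block, in granule nuclei the Control libraries held 89.0 and 96.8 CPM and those of Kat6a-cKO 69.9 and 83.8 (-0.27 ± 0.09, edgeR adjusted p = 0.34), and in OPC 164 and 167 CPM against 109 and 121 CPM (-0.53 ± 0.17, adjusted p = 0.24). Its values in Kat6a-cKO were all under those in Control in 4 classes, which were granule nuclei, CA3, inhibitory neurons and OPC. By comparison, 20.7%, 19.6%, 18.5% and 18.9% of all tested genes did so in those classes. Over all nuclei the values were 57.6 and 62.3 CPM against 45.4 and 52.7 CPM (-0.29 ± 0.09, adjusted p = 0.30). The classes share the same 4 libraries and their free RNA, so they are not independent of one another. In low-count barcodes Nlgn3 was 57.5 and 43.25 CPM for Control against 40.3 and 54.0 for Kat6a-cKO, which overlap. NEX-cre does not direct the deletion to OPC, and the cause of the lower Nlgn3 values was not tested.

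Nrxn2, Nrxn3 and Nlgn2 gave no call in the classes as defined here. In other excitatory nuclei Nrxn3 had -0.17 ± 0.11 (edgeR adjusted p = 0.69), but it was called in cluster 10 alone (-0.40, adjusted p = 0.048). It was -0.33 without library 2 of Control and 0.0053 without library 1 of Control. Nrxn2 had log2 fold changes from -0.23 in CA2 to 0.15 in mossy nuclei. Nlgn2 ran from -0.24 in other excitatory nuclei to 0.62 in astrocytes, where it rested on 26.0 to 48.7 CPM. Nrxn3 lay between -0.17 and 0.29 outside oligodendrocytes, and in CA3, CA2 and inhibitory neurons its fold change was within 0.01 of 0 with SEs of 0.05 to 0.07. In oligodendrocytes Nrxn3 stood at 415 and 126 CPM for Control against 532 and 1407 for Kat6a-cKO, and Lrrtm4 there was 296 and 114 against 190 and 780.5 CPM. Library 2 of Kat6a-cKO, with 56 oligodendrocyte nuclei, was the highest for both genes, at levels below those of the low-count barcodes. The Nrxn3 log2 fold change there was 1.81 ± 0.47 (edgeR adjusted p = 0.60), it was called without library 1 of Control (2.93) and without library 1 of Kat6a-cKO (2.35), it was 0.97 without library 2 of Kat6a-cKO, and it was -0.66 at the finer clustering. Over the 68 pairs of a gene and a class or all nuclei, the Kat6a-cKO values were all above the Control values in 13 and all below in 9, against 15.4% to 20.3% and 17.0% to 21.1% of all tested genes.

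The partners of these proteins were followed in 7 lists with 79 genes in all, of which 52 to 72 were tested in a class and 75 over all nuclei. Calls came in the same 2 classes as for the members. Those are also the 2 classes with the highest share of called genes. In mossy nuclei 2 of 60 tested partners were higher, beside 0.880% of all tested genes called in either direction, and in other excitatory nuclei 3 of 68 were lower, beside 0.682%. No listed partner was called in the other classes or over all nuclei. The median log2 fold change of a list ranged from -0.30 to 0.32 over lists and classes, with the median of all tested genes between -0.01 and 0.00.

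In mossy nuclei both called partners belonged to the list of 20 LAR-type phosphatases and their postsynaptic partners, a synaptic adhesion system that runs beside the neurexins. Ptprd, the presynaptic receptor phosphatase, stood at 1023 and 814 CPM for Control and at 1419 and 1256 for Kat6a-cKO (log2 fold change 0.55 ± 0.12, edgeR adjusted p = 0.030). Il1rapl1, a postsynaptic ligand of Ptprd, stood at 963 and 1090 CPM against 1437 and 1382 (0.45 ± 0.10, adjusted p = 0.041). They were 2 of the 14 genes of this list tested in mossy nuclei, whose median log2 fold change was 0.03, and whether single nuclei held more of both was not tested. Each call was lost on leaving out library 1 of Kat6a-cKO (adjusted p = 0.070 and 0.10) and with classes by marker score, Ptprd also without library 2 of Control and in nuclei without a Prox1 UMI, and Il1rapl1 also without library 1 of Control.

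In other excitatory nuclei the called partners were 2 ligands of neurexins and 1 latrophilin. Nxph1, a secreted neurexophilin that binds alpha-neurexins, fell from 226 and 221 CPM to 77.2 and 99.6 CPM (log2 fold change -1.34 ± 0.12, edgeR adjusted p = 2.7e-05). Nxph1 was also the first of the leading genes of inhibitory cluster 9, and the summed inhibitory markers in other excitatory nuclei were 92.9 and 62.2 CPM for Control and 151 and 74.1 for Kat6a-cKO, with 1 of 8 at 0, and overlapped. Cbln2, a cerebellin that bridges neurexins to postsynaptic receptors, fell from 47.2 and 47.7 CPM to 25.4 and 29.1 CPM (-0.80 ± 0.15, adjusted p = 0.022). Adgrl2, a latrophilin, fell from 294 and 235 CPM to 189.97 and 174 CPM (-0.54 ± 0.11, adjusted p = 0.038). The calls of Cbln2 and Adgrl2 were lost without library 1 of Kat6a-cKO (adjusted p = 0.18 and 0.15), that of Adgrl2 also without library 2 (0.19) and without library 1 of Control (0.21). Over 14 alternatives Adgrl2 was called in 6, with an adjusted p of up to 0.22, and Cbln2 in 10, with one of up to 0.42. The log2 fold change ranged over them from -2.21 to -0.53 for Cbln2 and from -0.69 to -0.37 for Adgrl2. Cbln2 also lost its call with the replicate number as a block.

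The remaining lists had no call, and for each the gene of smallest p in CA3 is given. It was Mdga1, which binds neuroligins and blocks neurexin binding, for the modulators (log2 fold change -0.22, edgeR adjusted p = 0.51). It was Lin7a, a scaffold protein, for the intracellular partners (0.39, adjusted p = 0.27). It was Khdrbs2, a splicing regulator of neurexins, for the splicing regulators (-0.11, adjusted p = 0.82), and Ctnna1, which holds Lrrtm2 in the annotation, for the 3 alpha-catenins (0.32, adjusted p = 0.51).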

How the data were processed

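Nuclei of 4 hippocampal libraries were analysed. The authors deposited raw counts (UMIs) per barcode and gene, empty droplets included. Per the submitters' processing notes the genome build was mm10 and Seurat 4.0.1 was used. The aligner, the counting strand and the treatment of overlapping genes are not given in the sources used here. Totals were 171323466 to 186897245 counts per library, and intervals were not computed for CPM. Gene IDs were matched to GENCODE M21 by ID and version (8 of 9 members, Nrxn3 by ID alone). Start regions came from RefSeq GRCm38.p6, which listed 6 of the members.

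Barcodes of at least 5000 UMIs were kept, Scrublet doublets (scanpy 1.11.5, rate 0.06) left out, and 30 components of 2000 variable genes clustered by Leiden (resolution 1, 15 neighbours). A cluster took the class with most markers raised 2-fold if at least 50% and 3 were. Clusters led by another class's markers, and glial clusters above 50% of the library's median UMIs, stayed unnamed. Counts were summed per library and class (30 nuclei at least) and tested by edgeR 4.0.16 (TMM, filterByExpr, quasi-likelihood, Benjamini-Hochberg, 0.05) in R 4.3.3. DESeq2 1.42.0 was an alternative. The procedure was tested on simulated data.

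The members and the lists were chosen with earlier results of these data known. Named were the members, called partners, for lists without a call the gene of smallest p in CA3, and 2 similar genes per member.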

Additional observations from a re-analysis of the deposited data

Results flagged for a closer look

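Lrrtm4 was singled out because its genotype effect differed between classes by a test of the difference itself, the edgeR interaction of class and genotype. The difference of log2 fold changes was 1.56 between mossy and CA3 nuclei (adjusted p = 1.0e-11), 1.48 between mossy and dentate granule nuclei (adjusted p = 5.0e-18), 1.88 between mossy and other excitatory nuclei (adjusted p = 7.9e-08) and 0.78 between mossy and CA1 nuclei (adjusted p = 8.5e-08). Lrrtm4 was higher in both Kat6a-cKO libraries than in both Control libraries in mossy nuclei and lower in both in other excitatory nuclei. Of all tested genes, 19.5% were higher in this way in mossy nuclei and 20.3% lower in other excitatory nuclei. These pairs were chosen because Lrrtm4 had been seen to be higher in mossy nuclei, so they restate that observation and are no independent support for it, and they compare the same 4 libraries. The SE in each pair was smaller than that of the mossy change alone, so the p-values can understate the spread between libraries. In the CA1 pair it was also smaller than that of the CA1 change alone, whose Kat6a-cKO libraries lay far apart. The 3 planned pairs gave no call for Lrrtm4 (adjusted p = 0.14 for CA3 and CA1, 0.91 for CA3 and granule, and 0.24 for CA1 and granule nuclei). The differences were not fitted with classes by marker score, under which the mossy log2 fold change was 0.26.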

How the results depend on the processing

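Lrrtm4 in mossy nuclei stayed past the threshold in 13 of 14 alternatives, but not all of these are a check. At Leiden resolution 2 the mossy class held the same nuclei, so that result could not differ. Fits without 1 library leave no spread within that genotype and were not read as support. With classes by marker score the Lrrtm4 change was 0.26 (log2) and no member was called (0). Nlgn1 in other excitatory nuclei stayed past it in 8 of 14. It was 0.36 to 0.48 on leaving out each library and lost its call without Kat6a-cKO replicate 1 or 2 (0.42 in both), 0.38 with doublets kept, 0.41 at Leiden resolution 2, 0.12 by marker score and 0.34 in cluster 18 alone, and in these the number of members called was 0. Which members were called there also moved on leaving out a library. Without a filter 2 members were called there, beside 308 of all 23836 tested genes. In cluster 10 alone 3 were, beside 130 of 11154. In CA1 1 member, Lrrtm4, was called without a filter (529 of all 28428 tested genes were) and in cluster 8 alone (87 of 12660). Its call without Kat6a-cKO replicate 2 rests on 1 library of that genotype. In oligodendrocytes no filter gave 2 calls, beside 35 of all 18932 tested genes, and the number moved on leaving out a library. For the differences of CA3 and of granule nuclei from CA1, 1 member was called without a filter, beside 38 of 29568 and 279 of 30342 genes. The number moved on leaving out a library. Nrxn3 in other excitatory nuclei was called in 2 of 14 alternatives, Adgrl2 in 6, Cbln2 and Ptprd in 10, Il1rapl1 in 11, and Nxph1 in 12 of 13.

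Directions turned for Lrrtm4 in CA1 cluster 2 (-0.15), in inhibitory neurons with doublets kept (-0.00011) and without Kat6a-cKO replicate 1 (leaving out each library gave -0.040 to 0.060), and in granule nuclei without that library (-0.0011 to 0.11), for Nrxn3 in other excitatory nuclei in cluster 18 alone (0.038) and without Control replicate 1 (leaving out each gave -0.33 to 0.0053), and for Lrrtm4 between CA3 and granule nuclei without Control replicate 1 (-0.11 to 0.027). The largest effect that turned was Nrxn3 in oligodendrocytes, from 1.81 to -0.66 at Leiden resolution 2. Over all members and classes 99 of 836 alternative values turned, none of them past the threshold.

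The replicate numbers are shared by both genotypes, but only 2 pairs exist and the deviations of same-numbered libraries correlated at -0.04 to 0.15, so they were not taken as pairs. With the replicate block Nlgn3 was called in granule nuclei (-0.28, edgeR adjusted p = 0.031) and over all nuclei (-0.29, adjusted p = 0.022), 1 member in each. All genes called there were 465 of 16670 and 764 of 21837. Under the block Cbln2 in other excitatory nuclei was not called (adjusted p = 0.052), and Lrrtm4 in mossy nuclei and Nlgn1 kept their calls. In granule nuclei 1 member, Nlgn3, was also called without a filter, beside 635 of 28332 genes. Genes called over all features moved widely. They were 1 to 529 in CA1 (5), 2 to 320 in CA3 (9), 1 to 107 in CA2 (4), 23 to 635 in granule (66), 1 to 170 in mossy (79), 10 to 308 in other excitatory (84), 0 to 138 in inhibitory neurons (4), 0 to 41 in astrocytes (2) and oligodendrocytes (1), 0 to 65 in OPC (12) and 1 to 764 in all nuclei (14), with the value used in the text in brackets.

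By marker score the class that led in the text held 866 CPM of Nrxn2 (OPC), 8262 of Nrxn3 (inhibitory neurons), 7559 of Nlgn1 (CA3) and 71.3 of Nlgn2 (OPC), and the lead for Nrxn3 passed to CA3 at 8847 CPM, with CA2 at 7802. Low levels moved further, Lrrtm4 in astrocytes from 126 to 3174 CPM and in CA1 from 645 to 1235, Nrxn3 in astrocytes from 258 to 2074 and in granule nuclei from 615 to 1043, and Nlgn1 in oligodendrocytes from 1070 to 3273. At 10000 UMIs OPC held 896 ± 486 CPM of Nrxn2 and 200.3 ± 96.3 of Nlgn3, from 3 or 4 nuclei per library.

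Depth limits Nlgn2 and Nlgn3, with under 100 counts over 4 libraries in oligodendrocytes.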
